A study of Mus musculus with 2 samples.

Results

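The HOX genes of the mouse lie in 4 clusters and encode homeodomain transcription factors that give cells their position along the body axis. They were followed here in explants of the embryonic ureter. The members were the biological probes whose gene name on the arrays consists of Hox, a cluster letter from a to d and a paralog number. This rule found 39 genes with 45 probes, of 29875 genes with 39429 probes on the array design. In the build mm9 the probes of the HoxA genes lie on chromosome 6, those of the HoxB genes on chromosome 11 (96057854 to 96228510), those of the HoxC genes on chromosome 15 (102759058 to 102867272) and those of the HoxD genes on chromosome 2 (74509248 to 74603059).

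Both groups came from wildtype NMRI mouse embryos at E12.5, of undetermined sex, whose ureters were kept as explants for 18 h. One group received 10 µM BIO (6-bromoindirubin-3-oxime), an inhibitor of the kinase GSK3 that stabilizes beta-catenin and activates canonical WNT signaling, and the control group received the solvent DMSO at 2 parts in 1000. There were 2 arrays, each with a control RNA in 1 channel and a BIO RNA in the other, and the dyes were exchanged between the arrays. The study's methods describe pools of ureters for each RNA. Each array was therefore taken as 1 biological replicate.

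Within a cluster all HOX genes are transcribed in the same direction, and their order on the chromosome follows the order in which they become active along the body axis. Genes with a low paralog number sit at the 3′ end of the cluster and are active early and far anteriorly, whereas genes with a high number sit at the 5′ end and are active late and in the caudal trunk, the limbs and the genital region. The same paralog number in different clusters marks related genes, such as Hoxa11, Hoxc11 and Hoxd11, which are together needed for the formation of the metanephric kidney. HOX proteins bind DNA together with cofactors of the PBX and MEIS families. WNT signals, retinoic acid and CDX factors switch the clusters on, while Polycomb proteins keep them silent. The ureter is a tube of epithelium (UE) within a sleeve of mesenchyme (UM), and both tissues were in the explants.

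Each HOX gene was read by probes of 60 bases. Between probes of different HOX genes the longest identical run was 11 bases. The central 30 bases (16 to 45) of 6 probes are shown, because the largest falls were read from the first 5 and the highest HOX ratio from the last. The coordinates are those of the whole probe in mm9.

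Hoxd1 probe, chr2:74603000-74603059, plus strand: ggattagaatctgaattataccttggcatc
Hoxd3 probe, chr2:74585787-74585846, plus strand: gattgagatcacaaatggtccttcatgggt
Hoxd8 probe, chr2:74545171-74545230, plus strand: ataaacttcctaatgatcagcgctagatga
Hoxb5 probe, chr11:96167130-96167189, plus strand: ctagtctggaagcgtatggaatcagaaata
Hoxa5 probe, chr6:52152049-52152108, minus strand: ttgtagaggtgacttgataagacacaaatt
Hoxd13 probe, chr2:74509248-74509307, plus strand: atgggactgaaagattatttttgtagatac

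Most HOX genes were measurable. Per channel, 70.1% to 80.9% of the biological spots of an array were well above background, and 0 spots were saturated. A probe counted as well above background when the scanner software had marked more than a share of 0.5 of its spots so. In 35 of 39 genes this held for both control and both BIO channels. All 11 HoxA genes and all 9 HoxD genes were among them, besides 8 of 10 HoxB genes and 7 of 9 HoxC genes. Hoxb1, Hoxb13, Hoxc12 and Hoxc13 were not well above background in any channel, and their processed signals stayed at or below 5.70. These 4 genes were not tested. Of the remaining 35 genes, those of the paralog numbers 1 to 4 are here called anterior (11 genes), those of 5 to 8 central (11 genes) and those of 9 to 13 posterior (13 genes).

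Of the 35 HOX genes tested, 8 fell with BIO (22.9%) and 0 rose. The test was limma on the log2 ratios of both arrays, fitted over all probes, at an adjusted p below 0.05. The genes were Hoxa5, Hoxa11, Hoxb4, Hoxb5, Hoxd1, Hoxd3, Hoxd4 and Hoxd8. Among all 21574 genes tested, 14.8% fell, 9.13% rose and 23.9% did either, so the share of HOX genes called at all was close to that of all genes and the calls lay in 1 direction. At an unadjusted p below 0.05, 17 HOX genes had a ratio below 0 and 2 had a ratio above 0, namely Hoxd11 and Hoxd13. The share of all genes at this unadjusted p was not counted, so these counts have no baseline beside them. The median log2 ratio of the HOX genes was -0.26, with -0.29 in replicate 1 and -0.15 in replicate 2, beside -0.01 for all genes. The mean ratio was below 0 in 28 of 35 HOX genes (80.0%; 51.4% of all genes). It was below 0 on both arrays in 23 HOX genes, a relation met by 38.1% of all genes, and the arrays had opposite signs in 8. Under 8 other settings of background, normalization, filter and probe choice, between 3 and 10 HOX genes fell, beside 5.22% to 15.8% of all genes. Hoxb5 was called in all 8 of them, Hoxd1 and Hoxd8 in 7, Hoxd3 and Hoxa5 in 6, Hoxa11 and Hoxd4 in 5 and Hoxb4 in 2, and 1 setting, the deposited score table, called Hoxd13 as risen. At an adjusted p below 0.01 by limma, 5 HOX genes fell (7.97% of all genes).

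The processed signals, which are background-subtracted and dye-normalized intensities, leaned the same way without a model. In 17 HOX genes both BIO signals lay below both control signals (26.4% of all genes), and in 3 both BIO signals lay above both control signals (29.9% of all genes). This comparison runs across the arrays and ignores their pairing, and the summed signals of all genes were higher in replicate 2. The changes were small. With the study's rule of an at least 2-fold ratio on both arrays and an intensity of at least 100, 0 HOX genes passed, beside 2.04% of all genes downward and 1.04% upward. At 1.5-fold 4 genes passed, all downward, namely Hoxb5, Hoxd1, Hoxd3 and Hoxd8 (4.84% of all genes downward, 3.39% upward).

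**Figure D1:**
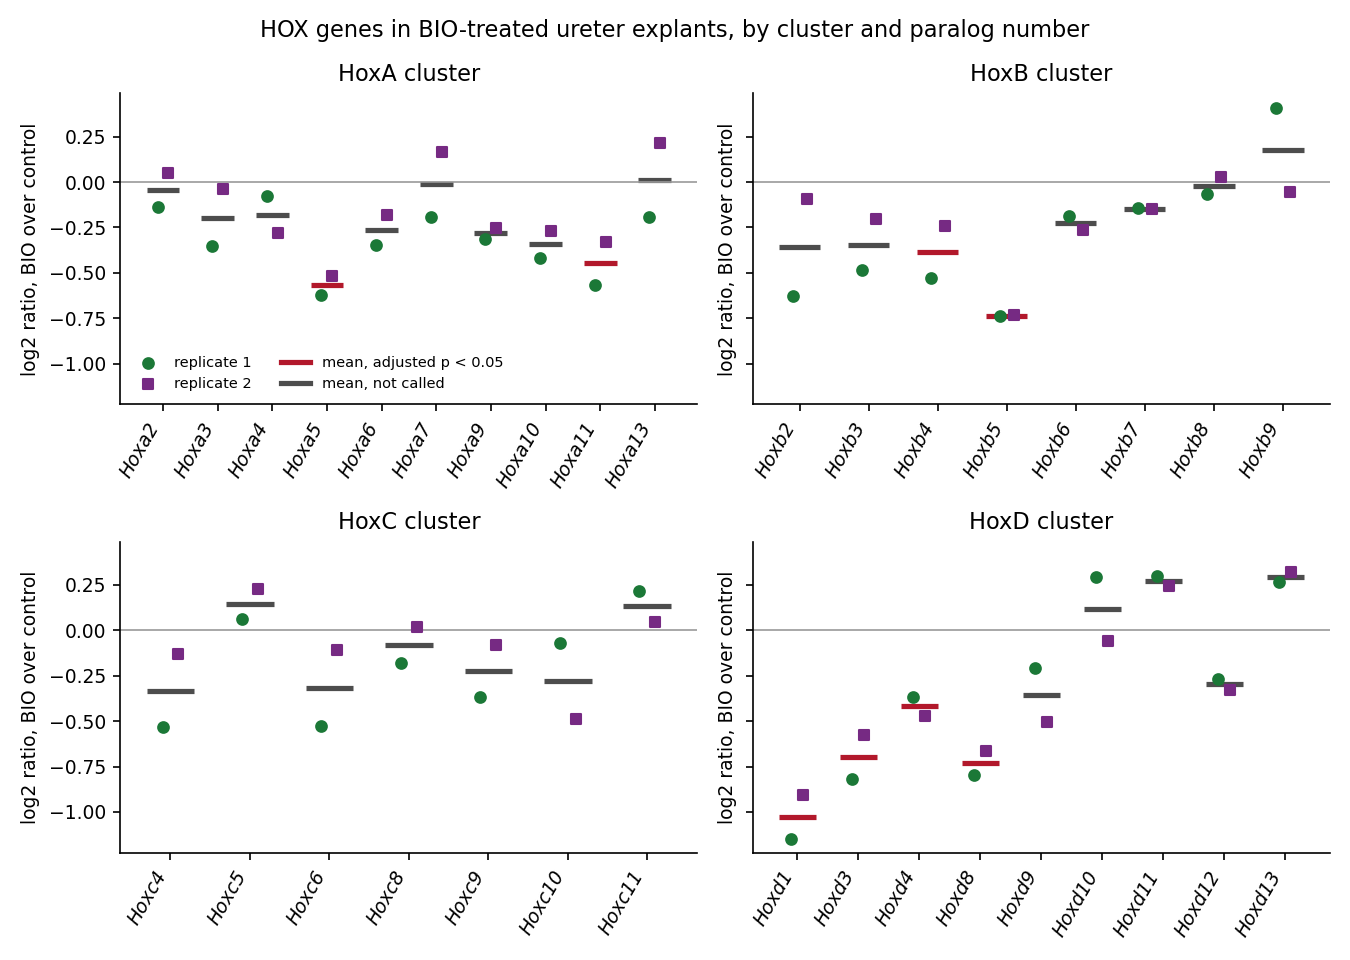
Log2 ratio of BIO over control (vertical axis) for HOX genes tested, in 4 panels by cluster and in the order of the paralog number; circles are replicate 1, squares replicate 2 and bars their mean, red where adjusted p was below 0.05. The 8 red bars lie between -1.03 for Hoxd1 and -0.39 for Hoxb4, and in the HoxD panel Hoxd1 is the lowest and Hoxd13 the highest, with Hoxd8 and Hoxd12 lower than the genes before them.

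The ratios describe RNA of whole explants, in which fewer cells of a type and less RNA per cell cannot be told apart. Of 12 markers of the UM 9 fell, beside 14.8% of all genes. Their summed processed signal, weighted toward the brightest markers, went from 338409 to 209621 in replicate 1 and from 370558 to 231906 in replicate 2. Of 12 markers of the UE 8 fell (91340 to 54387, and 93454 to 64279), and all 8 endothelial markers fell (23347 to 3807, and 27873 to 7370). Tbx18, the defining factor of the UM (mean log2 ratio -0.22), and the epithelial surface protein gene Epcam (0.02) were well above background in all channels and not called. Also not called were Tcf21 (-0.32) and Foxf1 (-0.16) of the UM and Cldn4, Gata3 and Cldn7 of the UE. All 12 means of the UM and 11 of 12 means of the UE, all but that of Epcam, were below 0. In contrast, all 10 markers of the cell cycle rose. Of 8 markers of kidney mesenchyme 1 rose and 3 fell, and 3 of 6 nerve markers and 4 of 6 macrophage markers fell. Over all genes 9.13% rose and 14.8% fell. The part of these shifts in the HOX ratios was not tested.

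In the HoxD cluster 4 of 9 genes fell (44.4%, beside 14.8% of all genes), and the fall was deepest at the 3′ end. Hoxd1, the most 3′ gene of the cluster, which acts in pain-sensing neurons, had processed signals of 1397 and 1358 in the control channels and of 635 and 732 in the BIO channels. Both BIO signals were far below both controls, and the log2 ratios were -1.15 and -0.91, with a mean of -1.03 ± 0.12 (SE, n = 2 arrays; limma, adjusted p = 0.00061), equal to 49.0% of control. This was the largest fall of any HOX gene. Hoxd3, which patterns the first vertebrae, went from 7517 to 4340 in replicate 1 and from 7645 to 5084 in replicate 2. Its log2 ratios were -0.82 and -0.58, and the groups did not overlap. Hoxd4, a neighbour with a role in the cervical vertebrae, was at 8667 and 10397 in control and at 6988 and 7453 with BIO. Its ratios of -0.37 and -0.47 made it the mildest of the HoxD genes that fell. Hoxd8, a gene of the central group, dropped from 6345 to 3791 and from 6839 to 4323, with ratios of -0.79 and -0.66. For Hoxd3, Hoxd4 and Hoxd8 the mean log2 ratios were -0.70, -0.42 and -0.73.

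The posterior HoxD genes, which build the limbs and the genital tubercle, were not called. Hoxd9 had ratios of -0.21 and -0.50 and Hoxd12 of -0.27 and -0.33. Hoxd10 lay on both sides of 0, at 0.30 and -0.06. Hoxd11 was higher with BIO on both arrays, at 4849 against 3871 and at 5706 against 4732. Its mean log2 ratio was 0.27 ± 0.11 (SE, n = 2 arrays; limma, adjusted p = 0.108). Hoxd13, the most 5′ gene, had control signals of 3683 and 2981 and BIO signals of 4556 and 3703, and its mean log2 ratio was 0.29 ± 0.11 (SE, n = 2 arrays; limma, adjusted p = 0.087). These 2 ratios were the highest of all HOX genes, and neither passed the threshold. From Hoxd1 to Hoxd9 all 5 genes were below 0 on both arrays, with a median of -0.70, while the 4 genes from Hoxd10 to Hoxd13 had a median of 0.20. This cut differs from the groups defined above, in which Hoxd9 is posterior, and Hoxd12 beyond it was also below 0 on both arrays. The posterior HoxD genes with Hoxd9 had a median of 0.12. As a description over the 9 genes, which share the same 2 arrays, paralog number and mean log2 ratio had a Spearman correlation of 0.90, with 0.80 in replicate 1 and 0.867 in replicate 2.

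In the HoxB cluster 2 of 8 genes tested fell (25.0%, beside 14.8% of all genes). Hoxb5, known for positioning the shoulder and for its expression in the gut wall, had 981 and 967 in control and 610 and 589 with BIO. Its ratios of -0.74 and -0.73 were nearly the same on both arrays, and the mean was -0.74 ± 0.11 (SE, n = 2 arrays; limma, adjusted p = 0.0022). Hoxb4, which is widely used to expand blood stem cells, went from 2156 to 1534 and from 2297 to 1915. Its mean of -0.39 was the smallest of the 8 falls, with an adjusted p of 0.049 by limma that lay at the threshold. Hoxb2 (-0.63 and -0.09) and Hoxb3 (-0.49 and -0.21) were below 0 on both arrays and were not called, and Hoxb2 differed strongly between the arrays. Hoxb6 had a mean of -0.22. Hoxb7, whose promoter is used to drive transgenes in the nephric duct and the ureteric bud, was measured at -0.15 on both arrays. Hoxb8 had a mean of -0.02. Hoxb9 had the highest ratio of the cluster, 0.18 ± 0.14 (SE, n = 2 arrays; limma, adjusted p = 0.399), from 0.41 and -0.06. The Spearman correlation of paralog number and mean log2 ratio was 0.786 over these 8 genes, with 0.833 in replicate 1 and 0.405 in replicate 2.

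**Figure D2:**
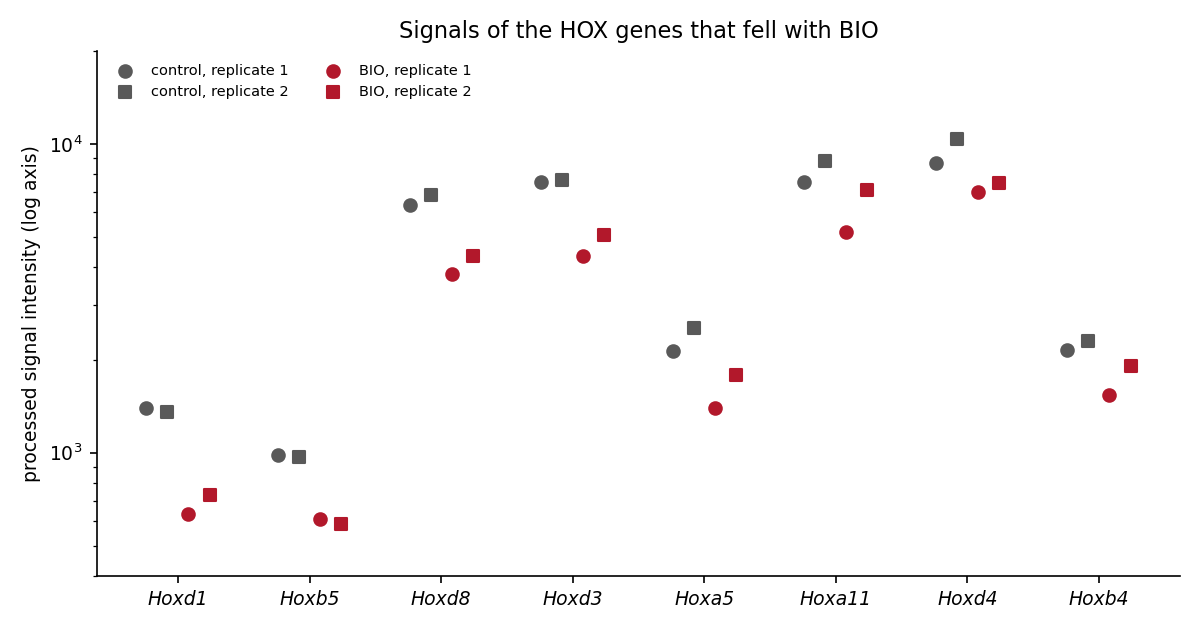
Processed signal intensity (vertical log axis) of the 8 HOX genes that fell, ordered by their mean log2 ratio; grey points are control and red points BIO channels, circles replicate 1 and squares replicate 2. In each gene both red points lie below both grey points, from 635 and 732 against 1397 and 1358 for Hoxd1 to 1534 and 1915 against 2156 and 2297 for Hoxb4.

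In the HoxA cluster 2 of 11 genes fell (18.2%, near the 14.8% of all genes), and these were not neighbours. Hoxa5, a regulator of lung and trachea formation, had 2128 and 2531 in control and 1400 and 1786 with BIO. Its log2 ratios were -0.62 and -0.52, with a mean of -0.57 ± 0.11 (SE, n = 2 arrays; limma, adjusted p = 0.0075). Hoxa11, one of the kidney-forming paralogs, went from 7544 to 5197 and from 8773 to 7099, with ratios of -0.57 and -0.33 and a mean of -0.45. Its BIO signal in replicate 2 lay only a little below the control signal of replicate 1. Hoxa10, which shapes the female reproductive tract, had a mean of -0.34, with -0.42 and -0.27 on the arrays, and just missed the threshold (adjusted p = 0.058 by limma). Hoxa9 (-0.28), Hoxa6 (-0.26), Hoxa3 (-0.20) and Hoxa4 (-0.18) were below 0 on both arrays without a call. Hoxa2, which patterns the hindbrain, had a mean of -0.04, and Hoxa7 had -0.01. In both genes the arrays had opposite signs. Hoxa13, a factor of the hindgut, the genital region and the distal limb, had the highest ratio of the cluster, 0.01 ± 0.13 (SE, n = 2 arrays; limma, adjusted p = 0.960), from -0.19 and 0.22. The Spearman correlation with the paralog number was -0.182 over these 11 genes.

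In the HoxC cluster 0 of 7 genes passed the limma test (14.8% of all genes fell and 9.13% rose). At an unadjusted p below 0.05, for which the share of all genes was not counted, 2 had a ratio below 0. Hoxc4 had the lowest mean, -0.33 ± 0.13 (SE, n = 2 arrays; limma, adjusted p = 0.102), from -0.53 and -0.13. Hoxc6 was close to it at -0.32, again with the lower value in replicate 1 (-0.52 and -0.11). Hoxc10 (-0.28) and Hoxc9 (-0.22) followed. Hoxc8 had a mean of -0.08. Hoxc5 had the highest mean, 0.14 ± 0.11 (SE, n = 2 arrays; limma, adjusted p = 0.406), and Hoxc11 had 0.13. Hoxc5 and Hoxc8 were dim, with processed signals from 26.2 to 47.7, and the background offset of 50 draws the ratios of such probes toward 0. The Spearman correlation with the paralog number was 0.321 over the 7 genes, 0.607 in replicate 1 and 0.036 in replicate 2.

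Read by paralog number instead of cluster, 7 of the 8 falls were among the anterior and central genes, which held 11 each of the 35 tested. In the anterior group 4 of 11 genes fell (36.4%, beside 14.8% of all genes). All 11 means were below 0, with a median of -0.35. In the central group 3 of 11 fell (27.3%), with a median of -0.22 and 1 mean above 0. In the posterior group 1 of 13 fell (7.69%), namely Hoxa11, with a median of -0.22 and 6 means above 0. Number 4 had a mean below 0 in all 4 clusters, from -0.42 to -0.18, and fell in HoxB and HoxD. Number 5 held both the HoxA and the HoxB minimum, Hoxa5 and Hoxb5, while Hoxc5 was at 0.14. Number 11 was split, with Hoxa11 at -0.45, Hoxc11 at 0.13 and Hoxd11 at 0.27. The 2 genes of number 13 that were tested, Hoxa13 and Hoxd13, had means above 0. Over all 35 genes the Spearman correlation of paralog number and mean ratio was 0.394. In replicate 1 alone it came to 0.479, against 0.190 for replicate 2. The blocks were therefore less distinct in replicate 2, and the difference between blocks was not tested, because genes of a cluster are not replicates.

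The arrays agreed best on the HoxD genes. The Pearson correlation of the log2 ratios of replicate 1 and replicate 2 was 0.929 over the 9 HoxD genes, 0.701 over all 35 HOX genes and 0.811 over all genes tested. It was lowest in the HoxC cluster, at 0.279 over 7 genes, in which the ratios spanned only -0.33 to 0.14.

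A second probe was present for 6 HOX genes and gave in part another picture. For Hoxb3 the second probe fell (-0.47, adjusted p = 0.026 by limma) where the brightest did not (-0.35, adjusted p = 0.069 by limma). For Hoxa3 the brightest probe, at the 3′ end of the gene, had -0.20, whereas the second probe fell (-0.41, adjusted p = 0.041 by limma). This second probe lies 30063 bases away, on the far side of the Hoxa4 probe toward Hoxa5, and was designed on a different transcript entry. The second probe of Hoxd11, 2878 bases from the first, had opposite signs on the arrays (0.25 and -0.24) and a mean of 0.01, so the ratio of 0.27 given above rests on the brightest probe. The probes of Hoxa9 (-0.28 and -0.21) and Hoxa13 (0.01 and 0.04) lay close together.

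The clusters also hold other transcripts, many of them long noncoding RNAs. Of 14 such genes with a probe between the outermost HOX probes, 12 were tested. Among these 1 rose and 1 fell (9.13% and 14.8% of all genes), with a median log2 ratio of -0.08. The probe named Hoxaas3 lies between the Hoxa6 probe and the Hoxa7 probe, on the minus strand from which the HoxA genes are read. It had 283 and 265 in control and 101 and 238 with BIO. Its ratios of -1.38 and -0.18 differed more than those of any HOX gene, and its mean of -0.78 (adjusted p = 0.047 by limma) rests mainly on replicate 1. Gm53, located between the Hoxb13 and Hoxb9 probes, went from 175 to 313 and from 203 to 260, with ratios of 0.66 and 0.25 and a mean of 0.46 (adjusted p = 0.037 by limma).

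The other transcripts of the clusters were not called. AI448005, read in the direction of the HoxD genes between Hoxd4 and Hoxd3, had -0.35 and -0.28, near the -0.37 and -0.47 of Hoxd4. Haglr, a noncoding RNA read against the HoxD genes beside Hoxd3, had -0.11 and -0.17, where Hoxd3 had -0.82 and -0.58. Hoxd3os1 had a mean of -0.01 and Gm14424 of 0.07. In the HoxB cluster Hoxb5os and Gm11538 both had -0.32. Gm11538 was dim, with 21.0 and 27.0 in control and 8.56 and 19.6 with BIO. With BIO it was not well above background in replicate 1. In the HoxA cluster Hoxa11os, the antisense RNA of Hoxa11, had -0.40 and 0.04, Hoxaas2 had a mean of 0.09 and 9530018H14Rik of 0.07, and Gm4200 in the HoxC cluster had 0.05.

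**Figure D3:**
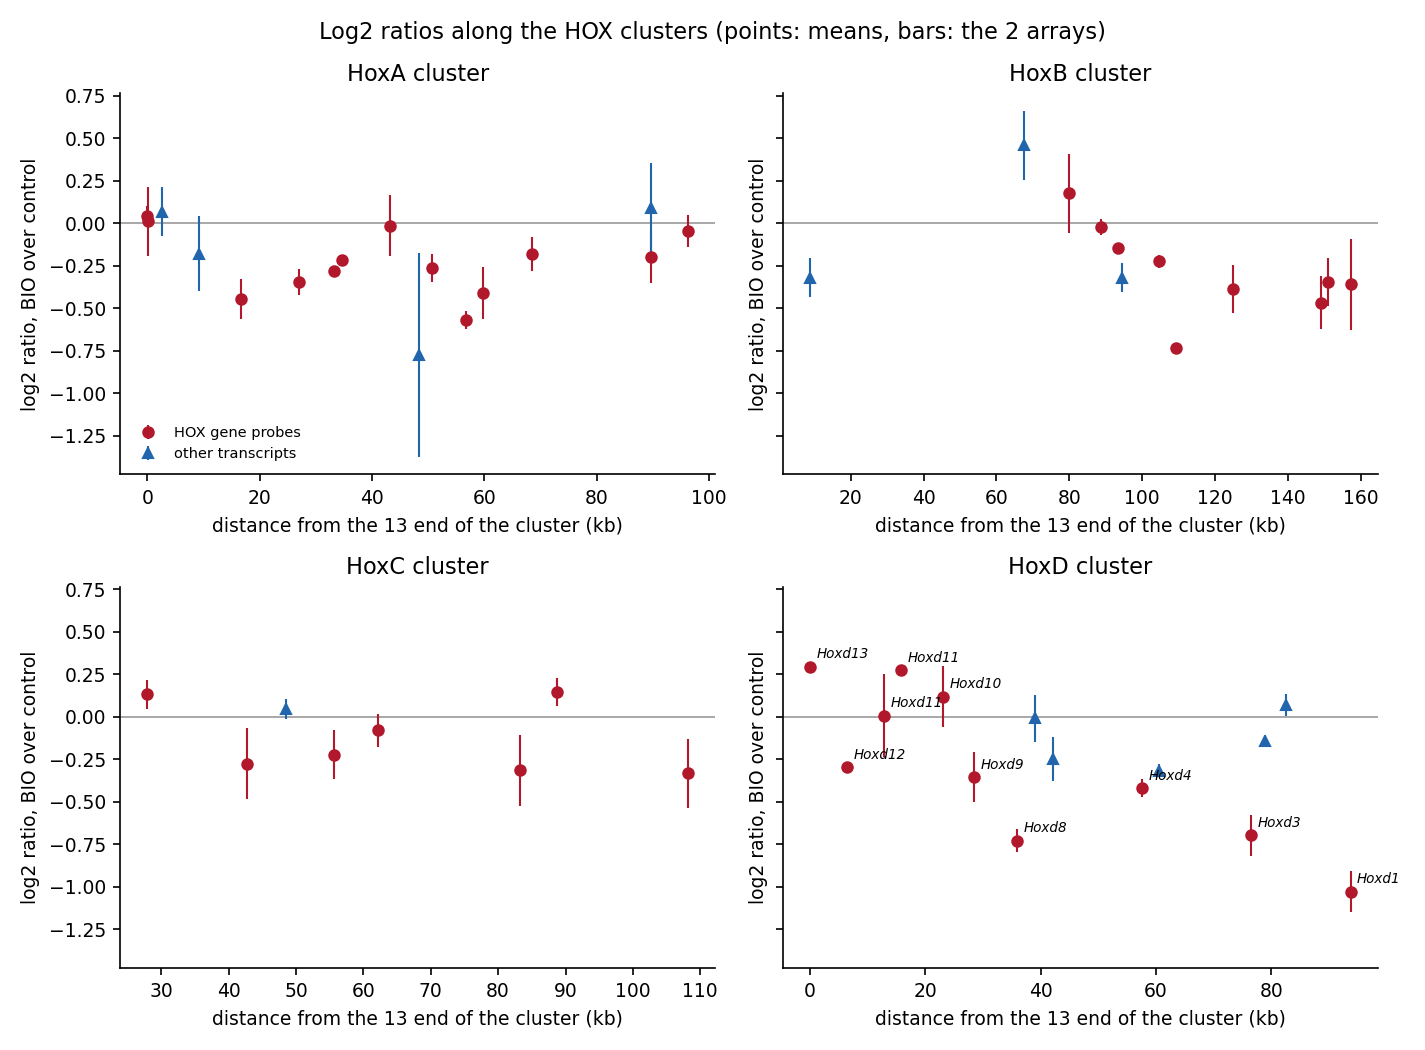
Mean log2 ratio of BIO over control (vertical axis) against the distance in kb from the probe at the 13 end of each cluster, in 4 panels; red circles are HOX probes, with further probes of the same gene, blue triangles are other transcripts, and the bars span the 2 arrays. In the HoxD panel the HOX probes run from 0.29 at Hoxd13 to -1.03 at Hoxd1, whereas the transcripts between them stay between -0.32 and 0.07.

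Promoters were inspected next, because beta-catenin reaches its target genes through DNA-binding partners of the TCF/LEF family. RefSeq windows of 300 bases (250 before and 50 after the start, assembly GRCm38.p6) were at hand for 22 of the 39 HOX genes. They were searched on both strands for the 4 words of the TCF/LEF motif that open with CTTTG and end with a pair of letters that are each A or T, and no words overlapped in the HOX windows. At least 1 word was in the windows of 4 of 22 HOX genes (18.2%) and of 5121 of 27025 genes overall (18.9%), so the HOX windows held the words about as often as promoters at large. Among the 7 windows of HOX genes that fell, 3 had a word, namely those of Hoxa11, Hoxd4 and Hoxd8. Among the 14 that were tested and not called, 1 had a word, that of Hoxd12. The windows of Hoxd8 with 2 words, of Hoxd4 with 1 word, and of Hoxd1, the gene with the largest fall and no word, are shown with the words in capitals and with GRCm38.p6 coordinates.

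Hoxd8 promoter, chr2:74704365-74704664, plus strand: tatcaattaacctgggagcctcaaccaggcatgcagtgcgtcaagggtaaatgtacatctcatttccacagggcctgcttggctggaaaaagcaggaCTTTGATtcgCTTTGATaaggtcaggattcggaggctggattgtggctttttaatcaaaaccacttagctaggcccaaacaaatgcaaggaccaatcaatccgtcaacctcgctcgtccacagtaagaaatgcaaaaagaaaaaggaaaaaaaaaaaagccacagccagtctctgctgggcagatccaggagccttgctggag
Hoxd4 promoter, chr2:74721728-74722027, plus strand: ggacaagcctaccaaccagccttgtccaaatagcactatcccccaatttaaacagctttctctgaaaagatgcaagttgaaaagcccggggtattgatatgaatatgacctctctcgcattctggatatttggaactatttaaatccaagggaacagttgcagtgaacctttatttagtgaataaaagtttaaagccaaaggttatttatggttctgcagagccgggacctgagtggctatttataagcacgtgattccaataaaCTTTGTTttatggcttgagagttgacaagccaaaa
Hoxd1 promoter, chr2:74762730-74763029, plus strand: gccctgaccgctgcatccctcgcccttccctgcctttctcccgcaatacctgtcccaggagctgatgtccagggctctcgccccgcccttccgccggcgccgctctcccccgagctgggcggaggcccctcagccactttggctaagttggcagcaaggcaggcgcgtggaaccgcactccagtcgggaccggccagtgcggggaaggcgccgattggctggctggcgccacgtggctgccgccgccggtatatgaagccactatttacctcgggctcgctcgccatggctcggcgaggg

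A match is only a description of letters, and no binding was measured here.

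Some cofactors of the HOX proteins fell as well. Of 9 genes of the TALE class, all tested, 4 fell (14.8% of all genes), with a median log2 ratio of -0.39. Meis2 went from 15350 to 9678 and from 16454 to 8686, with a mean of -0.84, and Meis1 from 35544 to 19097 and from 37365 to 24424, with a mean of -0.77. Pknox2 fell by 0.39 on the log2 scale. Among those not called were Meis3 (-0.39) and Pknox1 (-0.08). Under the 8 alternative settings of processing, Meis2 kept its call in 7 and Meis1 in 5.

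Genes that switch HOX clusters on or silence them were mixed. Of 22 such genes 20 were tested, and 5 rose and 2 fell (9.13% and 14.8% of all genes), with a median of 0.11. Cdx2 and Cdx4 were not well above background. Among the Polycomb genes, Ezh2, the histone methyltransferase of the complex, rose by 0.65, Cbx2 by 0.45, Suz12 by 0.44 and Bmi1 by 0.38 on the log2 scale, whereas the ubiquitin ligase Rnf2 fell by 0.48. Cdx1, a homeobox gene that is itself a WNT target, was dim in control (13.1 and 15.1) and higher with BIO (34.0 and 35.9), and it rose by 0.58. Its log2 ratio was 0.79 with an offset of 16 in place of 50 and 1.22 with the processed signals. These carry no offset but were floored at 15, above the control signal of 13.1 in replicate 1. Cyp26a1, which breaks down retinoic acid, fell by 0.43. The retinoic acid receptor genes Rara (-0.16), Rarb (0.16) and Rarg (-0.23) were not called.

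Homeobox genes outside the clusters moved in both directions and further. Of 82 such genes 61 were tested, and 14 rose and 7 fell (9.13% and 14.8% of all genes), with a median of 0.03. Among the largest rises were those of Msx1 (1.83) and Irx1 (1.32), and the largest falls were those of Meox1 (-1.54), Irx3 (-1.48) and Irx4 (-1.28). Only Hoxd1 among the HOX genes reached a size of 1 on this scale.

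**Figure D4:**
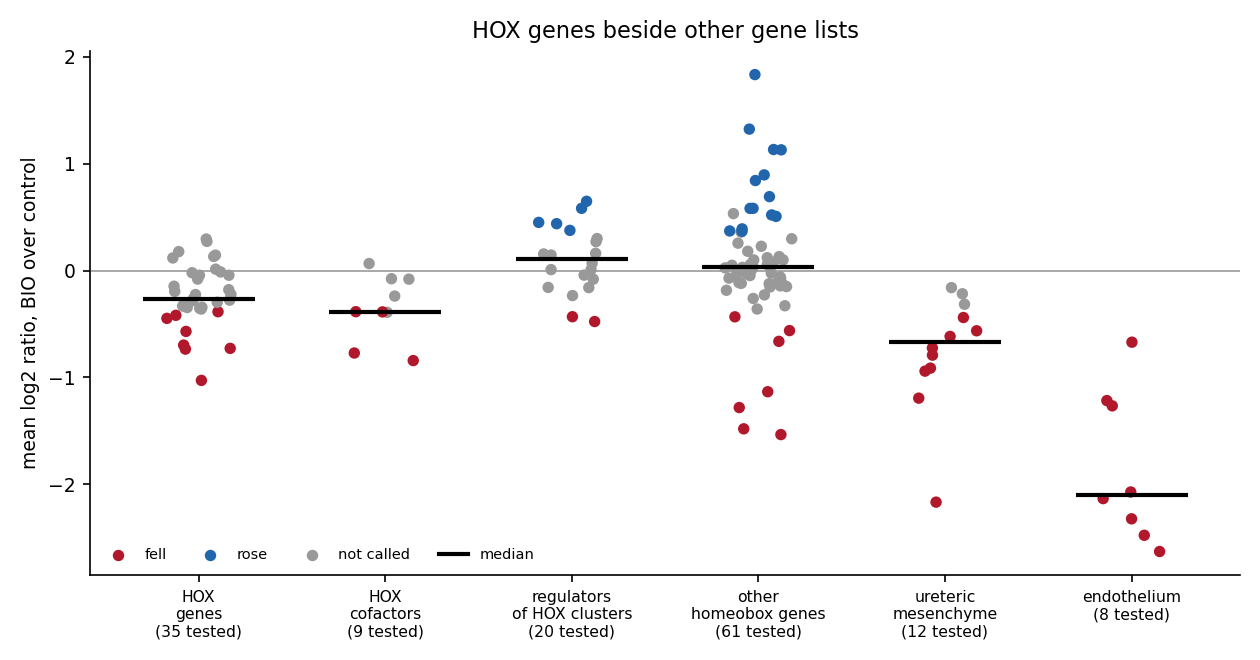
Mean log2 ratio of BIO over control (vertical axis) for the tested genes of 6 lists, 1 point per gene, in red where the gene fell, in blue where it rose and in grey where it was not called; black lines are medians. The HOX genes lie between -1.03 and 0.29 with a median of -0.26, while the homeobox genes outside the clusters spread from -1.54 to 1.83.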

How the data were processed

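Per the file headers, the authors scanned 2-colour Agilent arrays, on which a probe of 60 bases is spotted 4 times, and quantified them with Agilent Feature Extraction 10.7.3.1 (submitters' processing notes). The deposited tables give mean spot and local background intensities, not normalized, and processed signal intensities that Feature Extraction had background-subtracted and dye-normalized within the array. A value table deposited by the authors holds a score for every probe on each array, given to 1 decimal. Set against the scanner values, the score behaves like a fold change with a sign, negative where control was brighter. How it was centered is unknown, and it served as an alternative only.

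In R 4.3.3 with limma 3.58.1, the local background was removed from mean intensities by normexp (offset 50), and ratios were normalized by loess within each array, with control and outlier spots at weight 0. Both were then left out, the spots of a probe were averaged, and the dye-swapped array was turned. Probes well above background on both arrays in at least 1 condition (28824) entered a two-sided limma test of the mean ratio against 0 (lmFit, eBayes), and p-values were adjusted by the Benjamini-Hochberg method over them. A gene was represented by its brightest tested probe. The prior had 7.14 degrees of freedom, and log2 ratios had a median SE of 0.111. On data simulated for 2 arrays, the share of false calls exceeded the nominal rate, so a threshold of 0.01 was added after seeing the data. With 2 arrays their number limits the precision. Both arrays lay on 1 slide with 1 scan, so neither could act as a batch, and no dye term was fitted, since 2 arrays leave no freedom for it. The study's rule and the alternative with processed signals used these signals with a floor of 15.

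Probe coordinates are in mm9, as in the file headers. Symbols came from RefSeq genes of GRCm38.p6. Named were every HOX gene past the threshold, the largest rise and fall of each cluster with their statistics, the tested transcripts inside the clusters, and from other lists the 3 largest members past the threshold. Further genes were named after their values were seen. The members and lists were chosen with earlier results of these data known. A few items are not reported here.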

Additional observations from a re-analysis of the deposited data

How the results depend on the processing

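Of 280 values of a HOX gene under an alternative, 255 kept their side of the threshold, 18 lost the call and 7 gained it. A call in the opposite direction occurred in 0. Some genes without a call changed sign. The number of HOX means below 0, 28 as reported, was 24 with the processed signals or the deposited score table and 30 with median centering. The number of HOX genes that fell was 8 with limma as reported. It was 7 with a normexp offset of 16 (13% of all genes fell) and 7 without background correction (14.8%). Without a filter on dim probes it was 7 of the 39 genes then tested (9.76% of all genes fell). The number was 8 with a filter in both conditions (14.9%) and 10 with the mean of all probes of a gene (15.8%). It was 5 with median centering in place of loess (8.99% of all genes fell), 3 with the processed signals (5.22% of all genes fell) and 5 with the deposited score table (6.11% of all genes fell). The 3 with the processed signals were Hoxb5, Hoxd1 and Hoxd8. Of the 5 with the score table only Hoxb5 was shared, and this table, whose rounding gives some probes the same value on both arrays, also had 1 risen gene, Hoxd13. At an adjusted p below 0.01, a threshold added after seeing the data, 5 fell (7.97% of all genes). The median log2 ratio of the HOX genes ranged from -0.34 with median centering to -0.20 with the score table. The median of all genes moved by less than 0.1 under each of these. Leaving out replicate 1 gave a median of -0.15 and leaving out replicate 2 gave -0.29. The 2-fold rule passed 0 genes on both arrays, 4 at 1.5-fold, 0 at 3-fold or with a minimum intensity of 50 or 200, and between 0 and 1 with 1 array left out. The cause of these differences was not tested. The ratio of Hoxaas3 lost its call in 4 of 8 alternatives and that of Gm53 in 5 of 8. The test was itself paired, because each log2 ratio compares the BIO RNA and the control RNA of the same array.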

Other observations

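Around the HOX clusters, 64 of 77 genes with a probe within 500 kb outside the outermost HOX probes were tested, and 7 rose and 13 fell with BIO, with a median log2 ratio of -0.02. Over all genes 9.13% rose and 14.8% fell. Beyond the 13 end of the HoxA and HoxD clusters lie the Evx genes, homeobox genes that share an origin with the clusters. Evx1, 59.3 kb from the HoxA cluster, had processed signals of 731 and 527 in control and of 1274 and 1159 with BIO. It rose by 0.89 ± 0.13 (SE, n = 2 arrays; limma, adjusted p = 0.0019), and its antisense transcript Evx1os, 49.3 kb from the cluster, rose by 0.49. Hottip, the noncoding RNA 7.15 kb from Hoxa13, lay between them and the cluster and had -0.15 and -0.23 without a call. At the HoxD cluster Evx2, 15.6 kb from Hoxd13, had 0.12 on both arrays and was not called, and Lnpk (0.28) and Mtx2 (-0.15) were not called either. Skap1, 392 kb from the HoxB cluster, went from 152 to 544 and from 149 to 440, and its mean log2 ratio was 1.46, while Skap2 beside the HoxA cluster fell by 0.51.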
